A study of Homo sapiens with 8 samples.

Results

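The 40 genes described here encode heat shock proteins, chaperonin subunits and their helpers, and were picked by gene symbol from the 60554 gene rows of the count files. They fall into 5 subgroups beside HSF1, the transcription factor of the heat shock response: 8 genes for cytosolic HSP90 and its co-chaperones, 13 for HSP70 and HSP40, 7 for the chaperonin, 7 for the endoplasmic reticulum and 4 for mitochondria. All 40 passed the filter on low counts, which left 20238 genes for testing. DU145 and PC3, human prostate cancer lines grown from metastases, were each compared as docetaxel sensitive and docetaxel resistant cells, with 2 bulk RNA-seq libraries per group. Resistant cells were kept in medium with 10 nM docetaxel, a drug that stabilises microtubules, dissolved in DMSO, and sensitive cells were given 0.1% DMSO. All cells grew in RPMI medium with fetal bovine serum and antibiotics and were detached with trypsin. The study describes a drug-free week for single cell samples of these strains, and whether the bulk libraries had one, or whether a resistant strain derives from 1 clone, is not stated in the sources at hand.

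Chaperones bind proteins that are unfolded or incomplete and help them reach or regain their shape. HSP70 proteins hold short greasy stretches of a chain, HSP40 (DNAJ) proteins bring them clients and switch on their ATPase, and nucleotide exchange factors such as HSPH1, HSPA4 and the BAG proteins release the client. HSP90 acts later, on kinases and steroid receptors among others, with co-chaperones that deliver clients or time its ATP cycle. The chaperonin TRiC (also called CCT) is a double ring that folds actin and tubulin, the protein docetaxel binds. Separate sets work in the endoplasmic reticulum, where secreted proteins fold, and in mitochondria. Under heat or other protein damage HSF1 binds heat shock elements in the promoters of many of these genes, and the unfolded protein response acts through its own element on the endoplasmic reticulum set.

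Total counts ran from 31685148 to 43045127 per library, and the 40 genes took 1.72% to 2.40% of them. A single gene held between 116 counts (HSPA1A in DU145 sensitive replicate 2) and 146946 (HSP90AA1 in PC3 resistant replicate 2). The efflux pump ABCB1, taken as a check of the resistance labels, was at 1.68 and 1.58 CPM in DU145 sensitive and 1218 and 1011 in DU145 resistant libraries, and at 2.19 and 3.47 CPM in PC3 sensitive and 94.8 and 84.4 in PC3 resistant libraries. CPM are read counts scaled to a common library size with TMM factors, and where 2 values are joined they are those of replicates 1 and 2. Of 6 epithelial markers, 5 fell in DU145 and 1 rose and 1 fell in PC3, with KRT8 at 2166 and 1247 CPM in sensitive DU145 cells against 28.2 and 29.7 in resistant ones and at 189 and 130.04 CPM in sensitive PC3 cells against 235 and 224 in resistant ones. Their sums were 4989 and 3160.2 CPM in DU145 sensitive, 637 and 365 in DU145 resistant, 1694 and 1523 in PC3 sensitive and 1416 and 1267 in PC3 resistant libraries. Of 5 markers of prostate luminal cells 2 passed the filter, with 1 higher in DU145 and both higher in PC3, and KLK2 and KLK3 were at 0 in every library. Markers of blood, vessel and stromal cells (10 genes, 8 tested) summed to 6.19 to 55.3 CPM, none of which was called in DU145, while 2 rose and 1 fell in PC3. Of 12 proliferation genes, 1 fell in DU145 and 1 rose in PC3. The part of these markers in the results below was not tested. Separate cultures are not stated for the 2 libraries in a group, and p-values therefore measure only the spread between these libraries, which may be technical. Of the 40 genes, 22 share exon bases with other annotated genes, over 10% of their own for FKBP4, HSPA1B, HSPA8, TCP1, CCT4, CCT5, PDIA6, TRAP1 and HSPE1, and the sources used here give neither the counting rule nor the strand setting, so such reads cannot be told apart.

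The DU145 libraries of a group differed from each other in these genes. Replicate 1 exceeded replicate 2 for 39 of the 40 genes in DU145 sensitive and for 36 of 40 in DU145 resistant cells, and the same 36 genes were higher in replicate 1 of both groups, against 33.2% of all tested genes. In PC3 the counts were 23 and 19 of 40. The median difference between replicates was 0.30 and 0.25 on the log2 scale in the DU145 groups and 0.11 and 0.14 in the PC3 groups. Of 18 immediate early genes, which respond to handling and detachment of cells among other stimuli, 4 rose and 6 fell in DU145 and 5 rose and 3 fell in PC3. They summed to 729 and 1122 CPM in DU145 sensitive, 712 and 914 in DU145 resistant, 638 and 743 in PC3 sensitive and 844 and 861 in PC3 resistant libraries. FOS, 1 of them, was at 8.27 and 61.5 CPM in sensitive DU145 cells against 2.55 and 4.61 in resistant ones. Its part in the results below was not tested.

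The promoters of the 40 genes were searched for the elements named above, in the RefSeq windows of GRCh38.p14 from 250 bases before to 50 bases after each start site. A window was at hand for 38 of the genes (not for HSF1 and FKBP4). The heat shock element was searched on both strands as GAA, TTC and GAA in a row, with 2 bases of any kind between them. It was in a window of 6 of the 38 genes (15.8%) and of 166 of all 27305 genes with a window (0.608%). The sites are shown because genes that rose in DU145 resistant cells are among these 6. Each is printed 5′ to 3′ on the gene's strand with the element, as found on either strand, in capitals. The capitals in HSPD1 cover 2 overlapping matches.
HSP90AA1, chr14:102087112-102087140 (minus strand): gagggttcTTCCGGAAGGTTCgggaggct
HSP90AB1, chr6:44247770-44247798 (plus strand): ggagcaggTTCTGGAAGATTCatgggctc
HSP90AB1, chr6:44247823-44247851 (plus strand): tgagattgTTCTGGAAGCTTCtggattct
HSPA8, chr11:123062346-123062374 (minus strand): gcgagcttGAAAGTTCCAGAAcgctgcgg
HSPA8, chr11:123062171-123062199 (minus strand): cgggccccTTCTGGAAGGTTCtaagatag
DNAJA1, chr9:33025268-33025296 (plus strand): gccgggcgGAACTTTCCAGAAcgctcggt
DNAJB6, chr7:157336865-157336893 (plus strand): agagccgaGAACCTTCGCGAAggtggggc
HSPD1, chr2:197500062-197500090 (minus strand): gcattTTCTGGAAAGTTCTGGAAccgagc

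A shorter form with 2 units (GAANNTTC), which overlaps every longer match, was in 12 of the 38 genes (31.6%) and in 8.21% of all genes. It added HSPA1A, HSPA1B, DNAJB1, TCP1, CCT2 and CANX. Of the 6 genes with the longer element, HSPA8, DNAJA1 and DNAJB6 rose in DU145 resistant cells and the other 3 did not pass the test, where 12.4% of all genes and 32.5% of the 40 rose. The HSPA8 call is lost without single libraries and under other settings, as given with its values further on. In PC3, DNAJB6 fell and the other 5 did not pass. A match describes the letters in the window and does not show that a factor binds there.

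The element of the unfolded protein response was searched on both strands as CCAAT and CCACG with 9 bases of any kind between them. It was in a window of 5 of the 38 genes (13.2%), all of them among the 7 endoplasmic reticulum genes, and of 25 of all 27305 genes (0.0916%). The sites are shown because these 5 genes share the element while only CANX among them passed the test in either line. Of all genes, 27.8% passed in DU145 and 35.6% in PC3. CALR lay close to the threshold in PC3 and passed there as lower under other settings, as given with its values further on.
HSP90B1, chr12:103930211-103930239 (plus strand): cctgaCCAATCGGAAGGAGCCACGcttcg
HSP90B1, chr12:103930316-103930344 (plus strand): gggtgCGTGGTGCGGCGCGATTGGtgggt
HSPA5, chr9:125241386-125241414 (minus strand): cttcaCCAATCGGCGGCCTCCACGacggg
PDIA6, chr2:10812848-10812876 (minus strand): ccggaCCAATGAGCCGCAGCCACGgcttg
CALR, chr19:12938379-12938407 (plus strand): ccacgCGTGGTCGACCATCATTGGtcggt
CANX, chr5:179698773-179698801 (plus strand): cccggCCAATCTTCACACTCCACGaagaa

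In DU145, 13 of the 40 genes were higher in resistant cells, 2 were lower and 25 did not pass the test (edgeR quasi-likelihood test, Benjamini-Hochberg adjusted p under 0.05 over all genes, a call that 27.8% of all genes met). The genes that rose were led by HSPA8, DNAJA1, CCT2 and TCP1, and those that fell were HSPA2 and BAG1. Over all 20238 genes 12.4% were called higher and 15.4% lower, against 32.5% and 5.0% of the 40. The 40 are abundant genes, and among the 10271 genes that average 10 CPM or more, a limit chosen after the data were seen, 18.7% were higher and 17.6% lower. Beside a gene, the value given with an adjusted p is its log2 fold change (resistant minus sensitive unless stated), and ± marks the standard error. The median log2 fold change was 0.29 over the 40 and 0 over all genes. The resistant libraries were both above the sensitive pair for 19 of the 40 genes and both below for 5, where the background was 29.2% and 32.1%.

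The count of 13 fell to 5 when DU145 sensitive replicate 2 was left out and to 8 when DU145 resistant replicate 1 was. The 2 lower calls were both lost when either DU145 sensitive replicate 1 or DU145 resistant replicate 2 was left out, and 4 genes were called lower without DU145 sensitive replicate 2. Shares over all genes were not counted in the fits that leave out a library, in either line. In bulk RNA, fewer cells of a kind and less RNA per cell cannot be told apart.

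In PC3, 5 of the 40 genes were higher in resistant cells, 7 were lower and 28 did not pass, where 35.6% of all genes passed. Those that rose were CCT5, BAG3, HSPH1, FKBP4 and STIP1. Those that fell were BAG1, CDC37, DNAJB6, PTGES3, HSF1, HSPA4 and DNAJC3. Over all genes 18.6% were called higher and 17.0% lower, against 12.5% and 17.5% of the 40, and among the 10271 more abundant genes 17.0% and 24.9%. These shares lie near or under the background. The median log2 fold change was -0.09 over the 40 and 0.01 over all genes. Resistant libraries lay above sensitive ones for 14 of the 40 genes and below for 19, with a background of 36.1% and 35.1%. Leaving out PC3 sensitive replicate 1 brought the higher count to 2 and leaving out PC3 resistant replicate 2 to 3, while the lower count was 4 when PC3 sensitive replicate 2 or PC3 resistant replicate 1 was left out.

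Set side by side, 2 genes rose in both lines (BAG3 and CCT5), 1 fell in both (BAG1) and 3 rose in DU145 and fell in PC3 (HSPA4, DNAJB6 and DNAJC3). Over all tested genes these patterns held for 2.62%, 2.78% and 2.88%. No gene fell in DU145 and rose in PC3, which 4.08% of all tested genes did. A further 8 passed as higher in DU145 alone, HSPA2 passed as lower in DU145 alone, 3 passed as higher and 3 as lower in PC3 alone, and 19 passed in neither line. The shares of all tested genes with these patterns were 6.92%, 8.56%, 11.9%, 11.3% and 49.0%, in that order. The test of the difference itself is given further on.

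**Figure D1:**
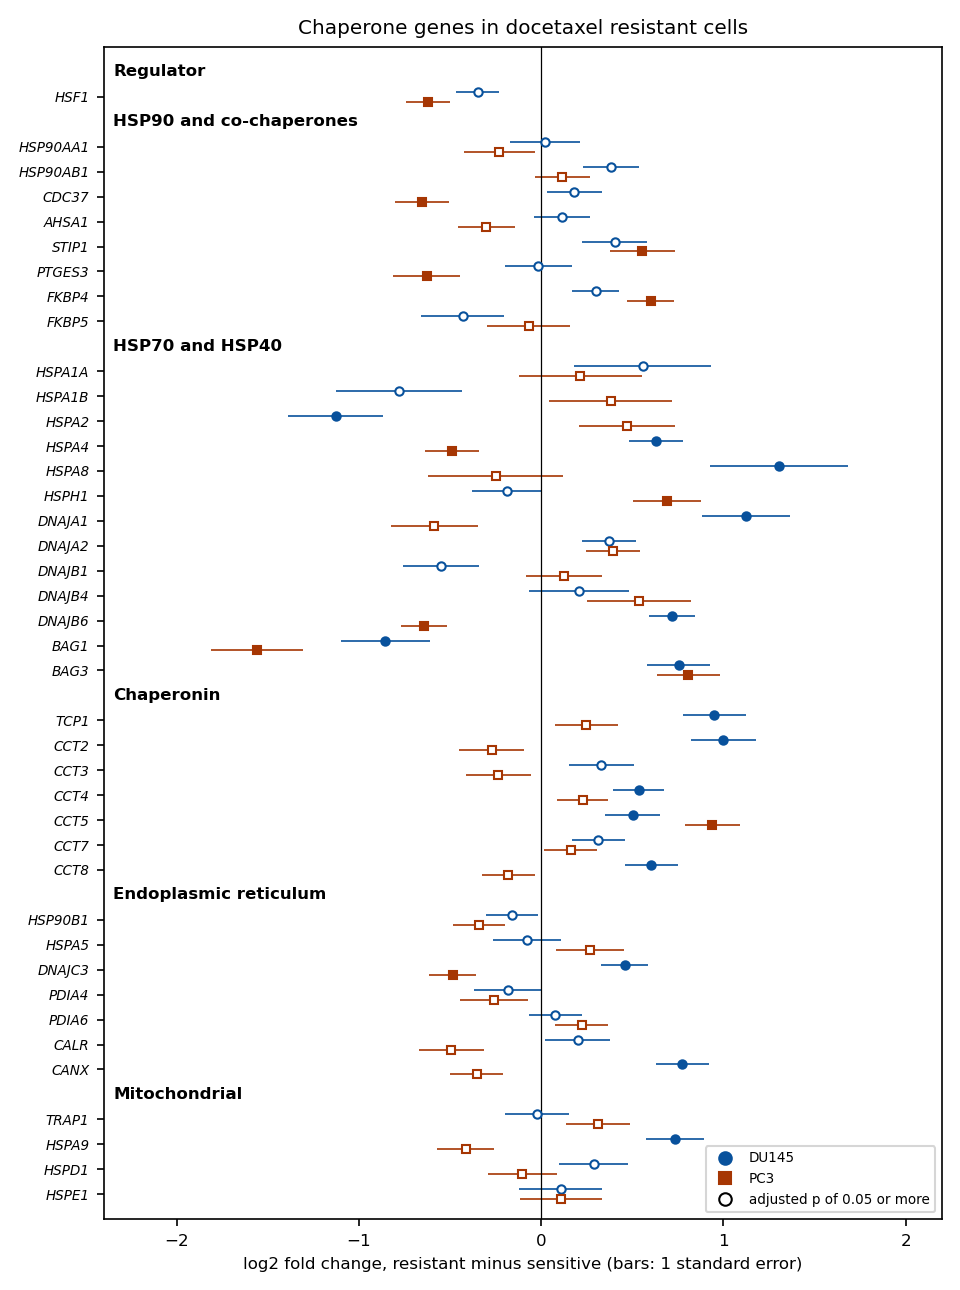
Log2 fold change (x axis, resistant minus sensitive, from edgeR, bars of 1 standard error) of the 40 genes (y axis, by subgroup) in DU145 (blue circles) and PC3 (brown squares), with filled symbols for an adjusted p under 0.05. The chaperonin genes sit to the right of 0 in DU145, with 5 of 7 filled, while filled PC3 symbols lie on both sides, 5 to the right and 7 to the left.

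HSF1 fell in PC3 resistant cells. It was at 147 and 142 CPM in sensitive PC3 cells against 95.0 and 92.3 in resistant ones, a log2 fold change of -0.62 ± 0.12, adjusted p = 0.00247, with no overlap between the groups. In DU145 the direction was the same and the groups did not overlap either, with 99.6 and 96.5 CPM in sensitive DU145 cells against 78.8 and 75.2 in resistant ones, but the change did not pass the test (-0.35, adjusted p = 0.0511), while it did with total count scaling (-0.36) and a filter of 1 CPM in 4 libraries (-0.36). The difference between the lines did not pass its own test (-0.27, adjusted p = 0.239). Of 4 other genes of the heat shock factor list, HSF2 rose in DU145 (at 33.8 and 28.8 CPM in sensitive DU145 cells against 46.0 and 43.7 in resistant ones, 0.52, adjusted p = 0.0337) and HSBP1, a small protein that binds HSF1 and holds it inactive, rose in PC3. HSBP1 was at 144 and 122 CPM in sensitive PC3 cells against 284 and 332 in resistant ones (1.21 ± 0.20, adjusted p = 0.000969), and at 178 and 132 CPM in sensitive DU145 cells against 139.9 and 101 in resistant ones (-0.36, adjusted p = 0.199). The HSF2 call was lost without DU145 sensitive replicate 2 (0.40), DU145 resistant replicate 1 (0.47), DU145 resistant replicate 2 (0.59), PC3 sensitive replicate 1 (0.52) or PC3 sensitive replicate 2 (0.52). It was also lost in a fit of the DU145 libraries alone (0.54) and with no low count filter (0.52).

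The HSP90 genes themselves did not pass the test in either line. HSP90AB1, the constitutive form, had the highest level per length of the 40 genes in every group. It was at 3052 and 2578 CPM in sensitive DU145 cells against 3795 and 3542 in resistant ones, without overlap but with 0.38, adjusted p = 0.0872, and at 2771 and 2615 CPM in sensitive PC3 cells against 2846 and 2988 in resistant ones (0.12, adjusted p = 0.597). HSP90AA1, the inducible form, ranked behind it in every group. It was at 2654 and 2323 CPM in sensitive DU145 cells against 2782 and 2273 in resistant ones (0.02, adjusted p = 0.956). In PC3 it was at 3749 and 3671 CPM in sensitive PC3 cells against 2616 and 3714 in resistant ones (-0.23, adjusted p = 0.39), and 1 resistant library was level with the sensitive ones while the other was lower. Per kb of exon, HSP90AB1 ran at 945 ± 112 CPM (mean ± SD, n = 2) in DU145 sensitive and 1231 ± 60.1 in DU145 resistant cells, and HSP90AA1 at 488 ± 46.0 and 496 ± 70.7. Length here is all annotated exon bases of a gene, 2980 for HSP90AB1 and 5097 for HSP90AA1, and not that of 1 transcript. In CPM, without this length, HSP90AA1 was above HSP90AB1 in both PC3 sensitive libraries.

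Among the co-chaperones, 2 rose and 2 fell in PC3, where 18.6% of all genes rose and 17.0% fell. In DU145 all 8 genes of the subgroup missed the threshold. CDC37, which brings kinases to HSP90, fell in PC3. It was at 501 and 499 CPM in sensitive PC3 cells against 326 and 309 in resistant ones (-0.65 ± 0.15, adjusted p = 0.00672), and at 240.0 and 202 CPM in sensitive DU145 cells against 277 and 225 in resistant ones, where the groups overlapped. PTGES3, the p23 protein that slows the HSP90 ATP cycle, was at 681 and 612 CPM in sensitive PC3 cells against 406 and 431 in resistant ones (-0.63, adjusted p = 0.0219) and at 798 and 597 CPM in sensitive DU145 cells against 786 and 594 in resistant ones. In the opposite direction in PC3, STIP1, which links HSP70 to HSP90, was at 511 and 511 CPM in sensitive PC3 cells against 670.3 and 832 in resistant ones (0.56, adjusted p = 0.0334). FKBP4, an immunophilin of steroid receptor complexes, was at 203 and 202 CPM in sensitive PC3 cells against 297 and 317 in resistant ones (0.60, adjusted p = 0.00466). Both were also higher in DU145 resistant cells without overlap, but with 0.40, adjusted p = 0.122 for STIP1 and 0.30, adjusted p = 0.11 for FKBP4. AHSA1, an activator of the HSP90 ATPase, and FKBP5, another immunophilin, did not pass in either line. For FKBP5 the DU145 value was -0.43, adjusted p = 0.19.

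Some of these PC3 calls depended on single libraries, and the values in parentheses are the log2 fold changes without them. PTGES3 was lost without any 1 of the 4 PC3 libraries (-0.71 to -0.55), and STIP1 was lost without PC3 sensitive replicate 1 (0.55), PC3 sensitive replicate 2 (0.55) or PC3 resistant replicate 2 (0.39). FKBP4 was lost without PC3 sensitive replicate 2 (0.59).

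HSP70 and HSP40 genes gave the widest spread of changes, where 5 of 13 rose and 2 fell in DU145, and 2 rose and 3 fell in PC3. Over all genes 12.4% rose and 15.4% fell in DU145, and 18.6% rose and 17.0% fell in PC3. The PC3 counts lie near that background. HSPA8, the constitutive HSC70, had the largest rise in DU145. It was at 675 and 313 CPM in sensitive DU145 cells against 1691 and 751 in resistant ones, so that the groups did not overlap while the replicates of each group differed widely, by 1.17 on the log2 scale in resistant cells (1.31 ± 0.38, adjusted p = 0.0256). In PC3 the levels were 2201 and 2374 CPM in sensitive PC3 cells against 1992 and 1854 in resistant ones (-0.25, adjusted p = 0.642). The highest DU145 library was still below the lowest PC3 library. The DU145 call was lost without DU145 sensitive replicate 2 (0.85) or DU145 resistant replicate 1 (0.59), and also with DESeq2 (1.32) and in a fit of the DU145 libraries alone (1.32).

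DNAJA1, an HSP40 that works with HSPA8, moved with it in DU145. It was at 159 and 90.5 CPM in sensitive DU145 cells against 313 and 231 in resistant ones (1.12 ± 0.24, adjusted p = 0.00604), without overlap. In PC3 it was at 371 and 409 CPM in sensitive PC3 cells against 246 and 273 in resistant ones, lower without overlap but not past the threshold (-0.59, adjusted p = 0.0785). DNAJA1 did pass as lower in PC3 in a fit of the PC3 libraries alone (-0.58), with no low count filter (-0.56) and without either DU145 sensitive library (-0.58 both times). DNAJB6, an HSP40 that keeps aggregation-prone proteins soluble, rose in DU145 and fell in PC3. Its levels were 77.1 and 70.7 CPM in sensitive DU145 cells against 127 and 116 in resistant ones (0.72 ± 0.13, adjusted p = 0.00199), and 162 and 176 CPM in sensitive PC3 cells against 109 and 107 in resistant ones (-0.64 ± 0.13, adjusted p = 0.00285). The 4 DNAJB6 groups had narrow replicate pairs, and the resistant cells of the 2 lines lay close together, 116 to 127 CPM in DU145 against 107 to 109 in PC3. HSPA4, an HSP110 exchange factor, had the same opposed pattern, at 293 and 238 CPM in sensitive DU145 cells against 426 and 397 in resistant ones (0.63 ± 0.15, adjusted p = 0.0098) and at 452 and 437 CPM in sensitive PC3 cells against 295 and 338 in resistant ones (-0.49 ± 0.15, adjusted p = 0.0253). HSPA4 was lost in DU145 without DU145 sensitive replicate 2 (0.48) or DU145 resistant replicate 1 (0.57), and in PC3 without PC3 sensitive replicate 1 (-0.47), PC3 sensitive replicate 2 (-0.52) or PC3 resistant replicate 1 (-0.39).

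The other HSP110 gene, HSPH1, rose in PC3 and not in DU145. It was at 350.2 and 418 CPM in sensitive PC3 cells against 529.7 and 709.9 in resistant ones (0.69 ± 0.19, adjusted p = 0.0156). In DU145 it was at 41.0 and 36.1 CPM in sensitive and 29.0 and 38.5 in resistant libraries, far below every PC3 library, and the groups overlapped (-0.19, adjusted p = 0.503). HSPA2, an HSP70 best known from the testis, fell in DU145. It was at 58.3 and 31.9 CPM in sensitive DU145 cells against 23.1 and 18.2 in resistant ones (-1.13 ± 0.26, adjusted p = 0.00875), without overlap, and at 10.9 and 13.0 CPM in sensitive PC3 cells against 15.7 and 17.5 in resistant ones (0.47, adjusted p = 0.19). HSPH1 was lost in PC3 without PC3 sensitive replicate 1 (0.57) or PC3 resistant replicate 2 (0.46). HSPA2 was lost in DU145 without DU145 sensitive replicate 1 (-0.61) or DU145 resistant replicate 2 (-0.94).

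BAG3 and BAG1, exchange factors of HSP70, moved in opposite directions, and each moved the same way in both lines. BAG3, which joins HSP70 to small heat shock proteins and to autophagy, was at 81.5 and 73.0 CPM in sensitive DU145 cells against 131 and 129 in resistant ones (0.75 ± 0.17, adjusted p = 0.00868) and at 191 and 220.1 CPM in sensitive PC3 cells against 297 and 422 in resistant ones (0.81 ± 0.17, adjusted p = 0.00457). BAG1, which couples HSP70 to the proteasome and also binds BCL2, was at 94.2 and 63.0 CPM in sensitive DU145 cells against 51.7 and 35.2 in resistant ones (-0.86 ± 0.25, adjusted p = 0.0244) and at 53.1 and 50.6 CPM in sensitive PC3 cells against 20.8 and 14.2 in resistant ones (-1.56 ± 0.25, adjusted p = 0.000873). For both genes the sensitive and resistant libraries did not overlap in either line. The test of the difference between the lines gave 0.05, adjusted p = 0.902 for BAG3 and -0.71, adjusted p = 0.142 for BAG1. BAG3 was lost in DU145 without DU145 sensitive replicate 2 (0.67) and in PC3 without PC3 sensitive replicate 1 (0.71). BAG1 was lost in DU145 without DU145 sensitive replicate 1 (-0.52) or DU145 resistant replicate 2 (-0.58).

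The heat-inducible HSP70 genes HSPA1A and HSPA1B lie next to each other at chr6:31815543-31817946 and chr6:31827738-31830254 (GENCODE 44, GRCh38) and differ at 4 of 1926 coding bases, with an identical run of 1709 bases, so the split of reads between them is uncertain. HSPA1A was at 6.08 and 3.27 CPM in sensitive DU145 cells against 7.00 and 6.78 in resistant ones, and at 41.5 and 67.4 CPM in sensitive PC3 cells against 42.3 and 84.1 in resistant ones. HSPA1B was at 35.9 and 15.7 CPM in sensitive DU145 cells against 17.3 and 12.7 in resistant ones, and at 33.4 and 48.2 CPM in sensitive PC3 cells against 44.3 and 62.1 in resistant ones. Neither passed in either line, and the replicates of a group differed widely. Leaving out single libraries moved HSPA1A in DU145 between 0.17 and 1.09 and HSPA1B between -1.26 and -0.047, and HSPA1B (-0.78, adjusted p = 0.12) passed as lower without DU145 sensitive replicate 2 (-1.26) and with no low count filter (-0.78). HSPA1A gave 0.56, adjusted p = 0.306 in DU145, and HSPA1A and HSPA1B summed gave -0.48 on the log2 scale, a change of sign that did not pass the test either. DNAJA2, DNAJB1 and DNAJB4 did not pass in either line. DNAJA2, an HSP40 of the cytosol, gave 0.39, adjusted p = 0.0603 in PC3, and passed there with total count scaling (0.50), a filter of 1 CPM in 4 libraries (0.44) and the PC3 libraries alone (0.40). DNAJB4 gave 0.54, adjusted p = 0.168 in PC3, and passed with no low count filter (0.56) and without PC3 sensitive replicate 2 (0.99). DNAJB1, an HSP40 that heat shock induces, was at 188 and 137 CPM in sensitive DU145 cells against 127 and 94.0 in resistant ones (-0.55, adjusted p = 0.0741), and passed as lower with no low count filter (-0.55), without DU145 sensitive replicate 2 (-0.77) or DU145 resistant replicate 1 (-0.80).

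**Figure D2:**
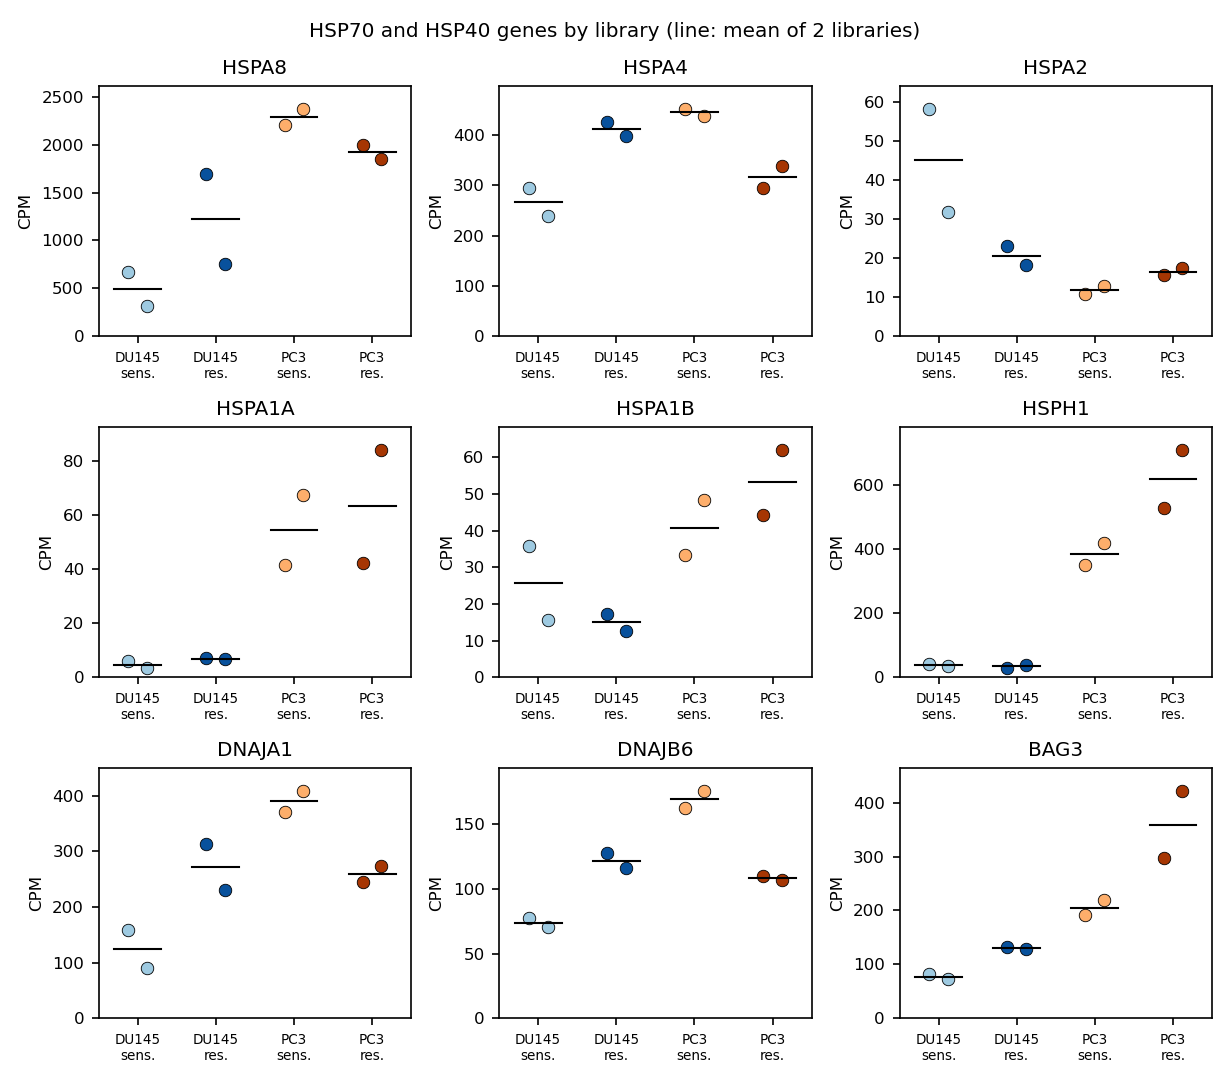
Level in CPM (y axes, linear, from 0) of 9 HSP70, HSP40 and BAG genes in each library (points) of the 4 groups (x axes, sens. for sensitive and res. for resistant), with the mean of the 2 libraries as a line. HSPA8, HSPA4, DNAJA1 and DNAJB6 are higher in DU145 resistant cells and lie lower in PC3 resistant cells, HSPH1 and HSPA1A are far higher in PC3 than in DU145, and BAG3 is higher in resistant cells of both lines. The split of reads between HSPA1A and HSPA1B is uncertain. Between the sensitive lines the log2 difference is 3.54 for HSPA1A and 1.64 for the 2 genes summed.

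In DU145 all 7 chaperonin subunits among the 40 had a positive log2 fold change, from 0.31 to 1.00. The test was passed by 5 of them, where 12.4% of all genes were called higher. The 5 were CCT2, TCP1, CCT8, CCT4 and CCT5. CCT2 was at 371 and 263 CPM in sensitive DU145 cells against 687 and 579.6 in resistant ones (1.00 ± 0.18, adjusted p = 0.00207). TCP1, which gave the complex its name, was at 303 and 229 CPM in sensitive DU145 cells against 557 and 470.3 in resistant ones (0.95 ± 0.17, adjusted p = 0.00236). CCT8 was at 477 and 411 CPM in sensitive DU145 cells against 684 and 667 in resistant ones (0.61, adjusted p = 0.0103). In these 3 genes the groups did not overlap. CCT4 was at 438 and 389 CPM in sensitive DU145 cells against 598 and 599.9 in resistant ones (0.53, adjusted p = 0.0168) and CCT5 at 712 and 602 CPM in sensitive DU145 cells against 1011 and 850.5 in resistant ones (0.50, adjusted p = 0.0298), again without overlap. CCT3 and CCT7 gave 0.33, adjusted p = 0.201 and 0.31, adjusted p = 0.14. CCT6A, a further subunit of the ring that is not among the 40, gave 0.21, adjusted p = 0.355.

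Summed over the 7 genes, the chaperonin stood at 3754 and 3029 CPM in DU145 sensitive, 5319.9 and 4624 in DU145 resistant, 3764 and 3439 in PC3 sensitive and 3808 and 3934 in PC3 resistant libraries. Both DU145 resistant libraries were above the other 6. In PC3, CCT5 alone passed. It was at 397 and 374 CPM in sensitive PC3 cells against 743 and 737 in resistant ones (0.94 ± 0.15, adjusted p = 0.000884), and the other 6 subunits ranged from -0.27 to 0.25. CCT5 was lower in PC3 sensitive than in DU145 sensitive cells (-0.77, adjusted p = 0.00129). Of the exon bases of CCT5, 30.8% are also exons of other genes on the opposite strand. Without DU145 sensitive replicate 2 the calls of CCT4 (0.44), CCT5 (0.38) and CCT8 (0.49) were lost in DU145. Without DU145 resistant replicate 1, those of CCT4 (0.53) and CCT5 (0.36) were lost. CCT5 in DU145 was also lost without PC3 sensitive replicate 1 (0.50), PC3 sensitive replicate 2 (0.50) and in a fit of the DU145 libraries alone (0.52).

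Per kb of exon, CCT3 was the most abundant subunit in DU145 and PC3 sensitive cells and in both resistant groups, at 214 ± 45.2 CPM (mean ± SD, n = 2) in DU145 sensitive and 269 ± 44.7 in DU145 resistant cells. TCP1 was the lowest in DU145 sensitive cells (54.5 ± 10.6) and in DU145 resistant cells (105 ± 12.6). CCT4 followed CCT3 in DU145 resistant cells at 222 ± 0.598 CPM per kb, a gap close to the SD of CCT3. In CPM, CCT5 was above CCT4 in DU145 resistant cells (means of 930 and 599). Their order per kb turns on annotated exon lengths of 5638 and 2701 bases.

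**Figure D3:**
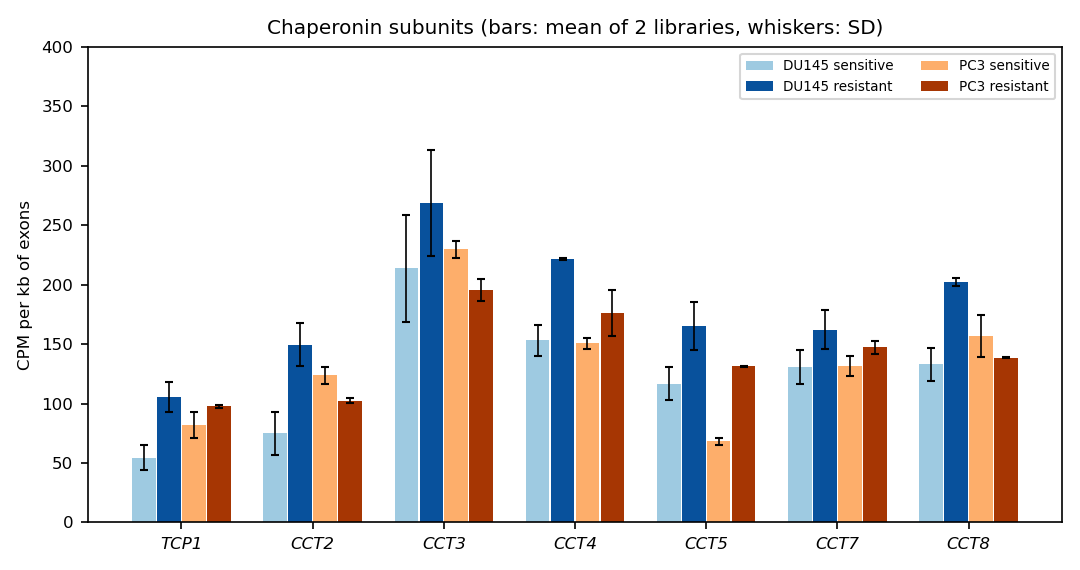
Level of the 7 chaperonin subunits (x axis) in CPM per kb of exons (y axis, linear, from 0) in the 4 groups, with bars for the mean of 2 libraries and whiskers for the SD. DU145 resistant cells (dark blue) have the tallest bar for every subunit, and CCT5 in PC3 sensitive cells (light orange) is low, at 68.4, against 131 in PC3 resistant cells.

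Of the 7 endoplasmic reticulum genes, CANX and DNAJC3 rose in DU145 and DNAJC3 fell in PC3, where 12.4% and 17.0% of all genes did so. CANX, the membrane lectin that holds new glycoproteins, was at 952 and 829 CPM in sensitive DU145 cells against 1558 and 1488 in resistant ones (0.77 ± 0.15, adjusted p = 0.00287), and at 1153 and 1185 CPM in sensitive PC3 cells against 965 and 863 in resistant ones (-0.36, adjusted p = 0.0799), with no overlap in either line and opposite order. DNAJC3, a co-chaperone that also restrains the kinase PERK, was at 59.4 and 55.7 CPM in sensitive DU145 cells against 80.1 and 78.1 in resistant ones (0.46, adjusted p = 0.0216) and at 53.5 and 59.9 CPM in sensitive PC3 cells against 40.7 and 40.2 in resistant ones (-0.49, adjusted p = 0.0133). HSPA5 (BiP), the main HSP70 of this compartment and the usual marker of its stress, did not pass. It was at 1185 and 1452 CPM in sensitive DU145 cells against 1091 and 1408 in resistant ones (-0.08, adjusted p = 0.8), with overlapping groups, and at 494 and 640.2 CPM in sensitive PC3 cells against 713 and 651 in resistant ones (0.27, adjusted p = 0.302). HSP90B1 (GRP94) was at 1350.2 and 1330.2 CPM in sensitive DU145 cells against 1272 and 1129 in resistant ones and 1068 and 1194 CPM in sensitive PC3 cells against 877 and 905 in resistant ones, a log2 fold change of -0.16 and -0.34 that passed in neither line. CALR, the soluble partner of CANX, gave -0.49, adjusted p = 0.0542 in PC3, where it was at 1650.5 and 1570.1 CPM in sensitive and 1177 and 1111 in resistant libraries, and it passed with DESeq2 (-0.49), with no low count filter (-0.46), in a fit of the PC3 libraries alone (-0.48) and without any 1 of the 4 DU145 libraries (-0.49 each time). The disulfide isomerases PDIA4 and PDIA6 did not pass in either line, with changes from -0.26 to 0.22.

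The DNAJC3 calls lay close to the threshold. In DU145 it was lost without any 1 of the 4 DU145 libraries (0.40 to 0.52), and in PC3 without PC3 sensitive replicate 2 (-0.41), PC3 resistant replicate 1 (-0.49) or PC3 resistant replicate 2 (-0.48). It was also lost with no low count filter, at 0.46 in DU145 and -0.45 in PC3, and in a fit of the DU145 libraries alone (0.48).

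Of the 4 mitochondrial genes, HSPA9 (mortalin), the motor that pulls proteins into the matrix, rose in DU145. It was at 573 and 466 CPM in sensitive DU145 cells against 848 and 879.6 in resistant ones (0.74 ± 0.16, adjusted p = 0.00611). In PC3 it was at 804 and 788 CPM in sensitive PC3 cells against 655 and 539 in resistant ones, lower without overlap but with -0.41, adjusted p = 0.0623, and it passed in a fit of the PC3 libraries alone (-0.41). HSPD1 and HSPE1, the HSP60 ring and its lid, did not pass. HSPD1 was at 615 and 444 CPM in sensitive DU145 cells against 735 and 559 in resistant ones (0.29, adjusted p = 0.292) and at 1098 and 979 CPM in sensitive PC3 cells against 970.1 and 963 in resistant ones (-0.10, adjusted p = 0.712). The DU145 groups of HSPD1 overlapped, and every PC3 library was above every DU145 library. HSPE1 and TRAP1, the mitochondrial HSP90, gave values from -0.02 to 0.31 over the 2 lines. HSPD1 and HSPE1 are neighbours with some shared exon bases on opposite strands (7.41% of HSPE1). Pseudogene and readthrough rows of HSPE1 together held 0.289% to 1.66% of the counts summed over them and HSPE1. HSPA9 was lost in DU145 without DU145 sensitive replicate 2 (0.58).

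All 40 genes together stood at 20101 and 16826 CPM in DU145 sensitive, 24843 and 21403 in DU145 resistant, 24106 and 23931 in PC3 sensitive and 21716 and 23248 in PC3 resistant libraries. The DU145 sensitive libraries were the lowest of the 8. HSP70 and HSP40 genes summed to 2033 and 1317 CPM in DU145 sensitive and 3303 and 2161 in DU145 resistant libraries, against 4225 and 4591 and 3981 and 4353 in PC3. The endoplasmic reticulum genes had no overlap in either line, higher in DU145 resistant (5171 and 4901 in sensitive, 5686 and 5459 in resistant) and lower in PC3 resistant libraries (5153 and 5397 and 4545 and 4297). In DU145 the mean of this sum went from 5036 to 5573 CPM, and that of CANX alone from 891 to 1523. There HSP90B1 (-0.16), HSPA5 (-0.08) and PDIA4 (-0.19) had negative log2 fold changes. Those of CALR (0.20), PDIA6 (0.08) and DNAJC3 (0.46) were positive. A sum is carried by its most abundant genes, and these sums were not tested.

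**Figure D4:**
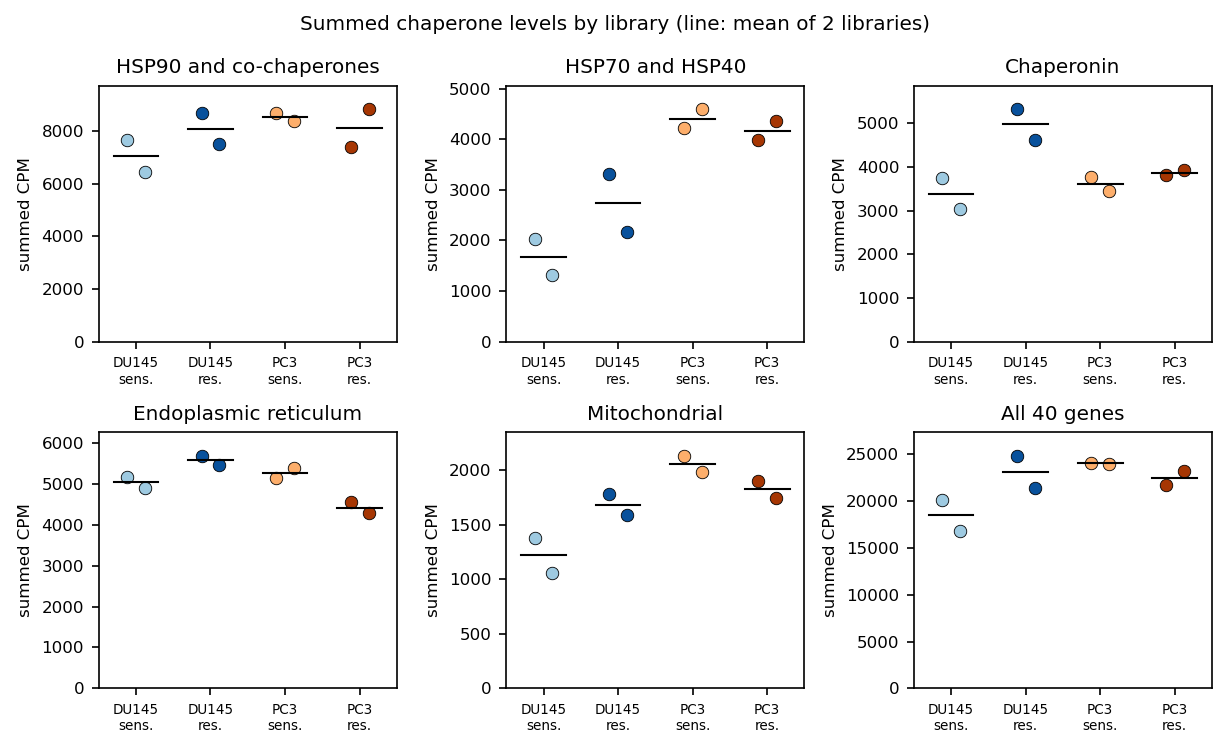
Summed CPM (y axes, linear, from 0) of the 5 subgroups and of all 40 genes in each library (points) of the 4 groups (x axes), with the mean of 2 libraries as a line. The chaperonin sum is highest in the 2 DU145 resistant libraries, at 4624 and 5319.9, and the HSP70 and HSP40 sum is higher in all 4 PC3 libraries than in all 4 DU145 libraries.

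The change with resistance was then compared between the lines (PC3 change minus DU145 change, both with their own sensitive cells). It passed for 13 of the 40 genes, or 32.5%, against 34.3% of all genes. The 11 with a lower change in PC3 were DNAJA1, HSPA8, DNAJB6, CCT2, HSPA9, CANX, HSPA4, DNAJC3, CDC37, CCT8 and TCP1. Their differences ran from -1.71 for DNAJA1 to -0.70 for TCP1. The 2 with a higher change in PC3 were HSPA2 (1.60, adjusted p = 0.00716) and HSPH1 (0.88, adjusted p = 0.0272). Over all genes 18.5% were called higher and 15.9% lower in this comparison, against 5.0% and 27.5% of the 40, and among the 10271 more abundant genes 18.5% and 24.6%. The smallest adjusted p was that of DNAJB6 (-1.36, adjusted p = 0.000258).

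Of these, HSPA8 in the difference was lost without DU145 sensitive replicate 2 (-1.10), DU145 resistant replicate 1 (-0.84) or any 1 of the 4 PC3 libraries (-1.61 to -1.504), and with DESeq2 (-1.57) and a filter of 1 CPM in 4 libraries (-1.495). TCP1 was lost without DU145 sensitive replicate 2 (-0.50), DU145 resistant replicate 1 (-0.56) or any 1 of the 4 PC3 libraries (-0.84 to -0.56), and under that filter (-0.64), RLE scaling (-0.71) and total counts (-0.59). HSPH1 was lost without DU145 sensitive replicate 1 (0.77), DU145 resistant replicate 1 (0.71), PC3 sensitive replicate 1 (0.76) or PC3 resistant replicate 2 (0.66). CDC37 was lost without DU145 sensitive replicate 2 (-0.71), and CCT8 was lost without DU145 sensitive replicate 2 (-0.67) or PC3 sensitive replicate 1 (-0.67). The other 8 kept their call without any single library.

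Between the sensitive lines 25 of the 40 genes were called. Of the 40, 20 (50.0%) were higher and 5 (12.5%) lower in PC3 sensitive than in DU145 sensitive cells. Over all genes 57.8% were called, and 66.0% of the more abundant genes, so the count of 25 lies near the background. By direction, 28.6% of all genes were higher and 29.2% lower, and 37.4% and 28.6% of the more abundant genes. Higher in PC3 by the most were HSPA1A (3.54 ± 0.39, adjusted p = 2.15e-05), HSPH1 (3.32 ± 0.21, adjusted p = 3.43e-07), HSPA8 (2.21 ± 0.39, adjusted p = 0.000617) and DNAJA1 (1.64 ± 0.24, adjusted p = 0.000192). With HSPA1B counts summed in, since the split of reads between that pair is uncertain, HSPA1A came to 1.64. The 5 genes lower in PC3 were DNAJB4 (-3.04 ± 0.30, adjusted p = 1.02e-05), HSPA2 (-1.91 ± 0.27, adjusted p = 0.000126), FKBP5 (-1.22, adjusted p = 0.00106), HSPA5 (-1.22, adjusted p = 0.000272) and CCT5. DNAJB4, an HSP40, was at 194 and 137 CPM in DU145 sensitive and 14.7 and 25.5 in PC3 sensitive libraries. The higher count was 12 without DU145 sensitive replicate 2. This comparison shares the sensitive libraries with those above, so its values are set beside them and not correlated with them.

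Other chaperone genes outside the 40 were listed by function. The counts of these lists stand beside 12.4% of all genes called higher and 15.4% lower in DU145, and 18.6% and 17.0% in PC3. Of 13 further HSP90 co-chaperones, 5 rose and 2 fell in DU145, and 1 rose and 1 fell in PC3, with a median log2 fold change of 0.40 and -0.06. CHORDC1, an HSP90 partner that heat induces, was at 47.9 and 44.8 CPM in sensitive DU145 cells against 106 and 79.3 in resistant ones (1.00, adjusted p = 0.00282) and at 98.4 and 130.1 CPM in sensitive PC3 cells against 157 and 192 in resistant ones (0.61, adjusted p = 0.0253). NUDC (0.73, adjusted p = 0.0202) and SUGT1 (0.64, adjusted p = 0.00598) rose in DU145. CDC37L1, a relative of CDC37, fell in both lines (-0.72, adjusted p = 0.00827 in DU145 and -0.49, adjusted p = 0.041 in PC3). The PC3 call of CDC37L1 was lost without any single library other than DU145 resistant replicate 2 (-0.53 to -0.45). It was also lost with total count scaling (-0.39), no low count filter (-0.46) and a filter of 1 CPM in 4 libraries (-0.44). CHORDC1 in PC3 was lost without PC3 sensitive replicate 1 (0.42) or PC3 resistant replicate 2 (0.46). NUDC was lost without DU145 sensitive replicate 2 (0.49) or DU145 resistant replicate 1 (0.44).

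Among 30 further HSP70, HSP40, BAG and small heat shock protein genes (29 tested), 6 rose and 5 fell in DU145, and 6 rose and 7 fell in PC3, with medians of 0.20 and -0.33. The largest changes of all the chaperone genes were here. HSPB1 (HSP27), a small heat shock protein that binds unfolded proteins and actin, was at 72.0 and 77.8 CPM in sensitive DU145 cells against 13.4 and 21.3 in resistant ones (-2.11 ± 0.21, adjusted p = 5.79e-05) and at 147 and 170.5 CPM in sensitive PC3 cells against 338 and 416 in resistant ones (1.25 ± 0.20, adjusted p = 0.000908). It fell in one line and rose in the other, without overlap in either. HSPB8, the small heat shock protein that works with BAG3, had the same order, with 545 and 448 counts in DU145 sensitive, 4 and 4 in DU145 resistant, 10 and 15 in PC3 sensitive and 812 and 830 in PC3 resistant libraries. The PC3 change was 5.63 ± 0.30, adjusted p = 4.55e-07. Its DU145 value (-6.87, adjusted p = 8.11e-07) rests on few counts and lies under the limit of 8 CPM for naming, and is given because the PC3 value is.

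DNAJC6 (auxilin), an HSP40 that uncoats clathrin vesicles and is best known in neurons, rose in both lines. It was at 13.6 and 11.3 CPM in sensitive DU145 cells against 71.8 and 70.2 in resistant ones (2.51 ± 0.20, adjusted p = 1.32e-05) and at 1.13 and 0.649 CPM in sensitive PC3 cells against 30.04 and 26.6 in resistant ones (4.98 ± 0.25, adjusted p = 2.83e-07). HSPA12A, a distant HSP70, rose in PC3 from 2.56 and 2.24 to 23.2 and 20.0 CPM (3.17 ± 0.19, adjusted p = 1.08e-06) and was at 29.0 and 28.0 CPM in sensitive DU145 cells against 25.1 and 23.1 in resistant ones. Of the other BAG genes, BAG4 fell in DU145 (56.7 and 49.1 CPM in sensitive, 26.1 and 25.6 in resistant, -1.03, adjusted p = 0.000436) and BAG5 fell in PC3 (114 and 119 CPM in sensitive, 54.2 and 41.0 in resistant, -1.29, adjusted p = 0.000152). DNAJB2 rose in DU145 (0.97, adjusted p = 0.0142), a call lost without DU145 sensitive replicate 1 (0.73) or DU145 resistant replicate 2 (0.79). The calls of HSPB1, DNAJC6, HSPA12A, BAG4 and BAG5 held without any single library.

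**Figure D5:**
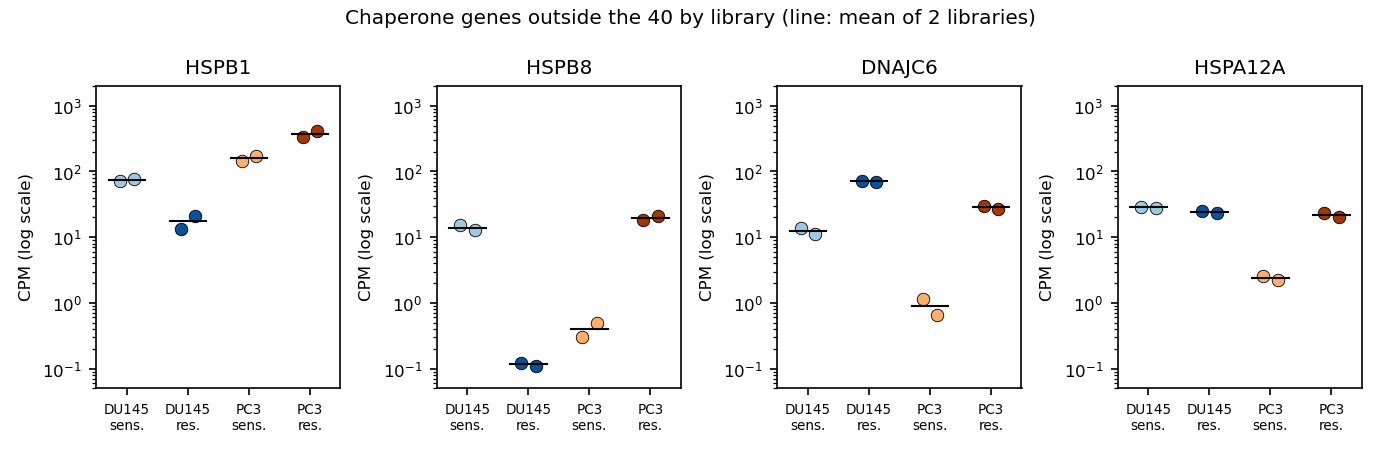
Level in CPM (y axes, log scale) of HSPB1, HSPB8, DNAJC6 and HSPA12A in each library (points) of the 4 groups (x axes), with the mean of 2 libraries as a line. HSPB1 and HSPB8 are lower in DU145 resistant and higher in PC3 resistant cells, DNAJC6 is higher in both, and HSPA12A is low in PC3 sensitive cells only, at 2.56 and 2.24 CPM.

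Around the chaperonin, 16 genes for further ring subunits, prefoldin and tubulin folding cofactors had 5 that rose and 2 that fell in DU145, and 2 that rose and 5 that fell in PC3, with medians of 0.21 and -0.36. PFDN1, a prefoldin subunit, was at 68.9 and 58.1 CPM in sensitive DU145 cells against 111 and 122 in resistant ones (0.87 ± 0.13, adjusted p = 0.000863). PFDN4, another, rose in both lines (0.71, adjusted p = 0.00748 in DU145 and 0.62, adjusted p = 0.0113 in PC3). VBP1, a prefoldin subunit, and PDCL3, a phosducin-like helper of the ring, rose in DU145 and fell in PC3. VBP1 was at 94.5 and 83.1 CPM in sensitive DU145 cells against 136 and 117 in resistant ones (0.51, adjusted p = 0.0187) and at 156 and 146 CPM in sensitive PC3 cells against 103 and 94.9 in resistant ones (-0.61, adjusted p = 0.00618). PDCL3 gave 0.79, adjusted p = 0.00885 and -0.62, adjusted p = 0.0212. PFDN5 (-0.66, adjusted p = 0.00812) and TBCD (-0.65, adjusted p = 0.0368), which folds tubulin dimers, fell in PC3.

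Of these, the PFDN1 call held without any single library. VBP1 was lost in DU145 without DU145 sensitive replicate 2 (0.41) or DU145 resistant replicate 1 (0.38), and in PC3 without PC3 sensitive replicate 1 (-0.56) or PC3 resistant replicate 2 (-0.55). PDCL3 was lost in DU145 without DU145 sensitive replicate 2 (0.65) or DU145 resistant replicate 1 (0.60), and in PC3 without any 1 of the 4 PC3 libraries (-0.67 to -0.58). PFDN4 was lost in DU145 without DU145 sensitive replicate 2 (0.56) or DU145 resistant replicate 1 (0.53), and in PC3 without PC3 sensitive replicate 2 (0.51) or PC3 resistant replicate 1 (0.56). PFDN5 was lost without PC3 sensitive replicate 2 (-0.51) or PC3 resistant replicate 1 (-0.55), and TBCD was lost without any 1 of the 4 PC3 libraries (-0.77 to -0.54).

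In the endoplasmic reticulum list (38 genes, 35 tested), 2 rose and 4 fell in DU145, and 6 rose and 6 fell in PC3, with medians of 0.07 and 0.10. Calls in either direction came to 6 in DU145 and 12 in PC3, not above the 27.8% and 35.6% of all genes. HYOU1, the large HSP70 relative of this compartment, rose in both lines, at 261 and 233 CPM in sensitive DU145 cells against 506 and 474 in resistant ones (0.99 ± 0.13, adjusted p = 0.000378) and 229 and 238 CPM in sensitive PC3 cells against 378 and 368 in resistant ones (0.67 ± 0.13, adjusted p = 0.00276). P4HB, the main protein disulfide isomerase, fell in both, at 751 and 702 CPM in sensitive DU145 cells against 452 and 356 in resistant ones (-0.85, adjusted p = 0.0021) and 672 and 663 CPM in sensitive PC3 cells against 458 and 474 in resistant ones (-0.52, adjusted p = 0.0206). EDEM1, which sends misfolded glycoproteins to degradation, fell in DU145 (-1.14, adjusted p = 0.000535), and the oxidase ERO1B rose in PC3 (1.13, adjusted p = 0.000477). DERL2, part of the export channel for degradation, rose in DU145 (0.76, adjusted p = 0.00201). ERP29 fell in both lines (-0.44, adjusted p = 0.0365 in DU145 and -0.85, adjusted p = 0.00101 in PC3). Its DU145 call was lost without DU145 sensitive replicate 1 (-0.48), DU145 sensitive replicate 2 (-0.39), DU145 resistant replicate 1 (-0.34) or either PC3 sensitive library (-0.44 both times). It was also lost with no low count filter (-0.44) and in a fit of the DU145 libraries alone (-0.42). PPP1R15A, which restarts translation after stress, rose in PC3 (0.81, adjusted p = 0.0321), a call lost without any 1 of the 4 PC3 libraries (0.69 to 0.93). P4HB in PC3 was lost without any 1 of the 4 PC3 libraries (-0.54 to -0.49).

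In mitochondria, 2 of 18 listed proteostasis genes rose and 2 fell in DU145, and 3 rose and 2 fell in PC3, with medians of 0.08 and 0.09. Calls in either direction came to 4 in DU145 and 5 in PC3, under the 27.8% and 35.6% of all genes. GRPEL2, an exchange factor of HSPA9, rose in PC3, at 49.1 and 42.7 CPM in sensitive PC3 cells against 154 and 120.2 in resistant ones (1.58 ± 0.16, adjusted p = 4.92e-05), and was at 36.2 and 42.2 CPM in sensitive DU145 cells against 41.9 and 47.6 in resistant ones. MIPEP, which trims imported proteins, also rose in PC3 (1.04, adjusted p = 0.00134). The inner membrane protease YME1L1 fell in both lines (-0.66, adjusted p = 0.00306 in DU145 and -1.06, adjusted p = 0.000125 in PC3), and so did LONP1, the matrix protease (-0.41, adjusted p = 0.0419 and -0.83, adjusted p = 0.000845). TIMM44, which anchors HSPA9 at the import pore, rose in DU145 (0.64, adjusted p = 0.0101), a call lost without DU145 sensitive replicate 2 (0.55). DNAJA3, the mitochondrial HSP40, rose in DU145 (0.53, adjusted p = 0.032), a call lost without DU145 sensitive replicate 1 (0.65), DU145 sensitive replicate 2 (0.44), DU145 resistant replicate 1 (0.32), PC3 sensitive replicate 1 (0.54) or PC3 sensitive replicate 2 (0.54). The LONP1 call in DU145 was lost without each of the 8 libraries in turn, at values from -0.47 to -0.33, and in a fit of the DU145 libraries alone (-0.39), and the call in PC3 held.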

How the data were processed

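Bulk RNA-seq counts of reads per gene, deposited by the authors for 8 libraries, were used without change. Per the labels the libraries were made with a SMART-seq mRNA kit from total RNA, and the submitters' processing notes name Bowtie and hg38. The counting tool, annotation, strand setting and treatment of reads that map to several genes are not stated in the sources at hand. Libraries were grouped by line and by sensitivity as labelled. In R 4.3.3, edgeR 4.0.16 was run on all 8 libraries with TMM scaling, filterByExpr by group and a mean per group, which left 20238 of 60554 genes and 4 residual degrees of freedom (common biological coefficient of variation 17.1%). Quasi-likelihood tests compared resistant with sensitive cells in each line, the 2 changes with each other, and the sensitive lines. P-values were adjusted by Benjamini-Hochberg over all genes tested, with a threshold of 0.05. Standard errors were taken from the fold change and its F statistic. The steps were tested on simulated data.

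The 40 members and the 11 other gene lists were chosen with earlier results of these data known, so no list was tested as a whole. Values in every library were given for members called in both lines, called with an absolute log2 fold change of at least 1 or called in the difference, and for HSF1, HSP90AA1, HSP90AB1, HSPA1A, HSPA1B, HSPA5, HSPA8 and HSPD1. Others were added where a description called for them, with their values seen. From each other chaperone list up to 4 called genes per line with a mean of at least 8 CPM were eligible for naming. Exon lengths, overlaps and coding sequences came from GENCODE 44 and promoters from RefSeq. Alternatives were RLE and total count scaling, 2 other filters, DESeq2 1.42.0, the replicate number as a block, a threshold of 0.01, each line alone, pseudogene and readthrough counts summed in, and leaving out each library. A gene of the lists is not reported here.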

Additional observations from a re-analysis of the deposited data

Results flagged for a closer look

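The change with docetaxel resistance differed between the lines for 13 of the 40 genes (32.5%), by the edgeR test of the difference (PC3 change minus DU145 change, log2, adjusted over all genes), where 34.3% of all genes passed. It also differed for 19 of 32 other chaperone genes, which were named because they were called in at least 1 line, so this share was raised by their choice. No group has the 4 libraries that a test for single outlying libraries needs.

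Among the 40 genes, the heat shock proteins of the cytosol with a lower change in PC3 were DNAJA1 (-1.71), HSPA8 (-1.56), DNAJB6 (-1.36), HSPA4 (-1.12) and the kinase co-chaperone CDC37 (-0.84). The chaperonin subunits CCT2 (-1.27), CCT8 (-0.78) and TCP1 (-0.70), the mitochondrial HSPA9 (-1.15) and the endoplasmic reticulum genes CANX (-1.13) and DNAJC3 (-0.95) had the same direction. HSPA2 (1.60) and HSPH1 (0.88) had the opposite one.

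Outside the 40, HSPB8 had a difference of 12.49, HSPA12A of 3.41, HSPB1 of 3.36 and DNAJC6 of 2.47. The value of HSPB8 is set by groups with very few counts. The change was also higher in PC3 than in DU145 for HSBP1 (1.57), GRPEL2 (1.39), MIPEP (1.20), BAG4 (1.07), ERO1B (1.01) and EDEM1 (0.83). The change was lower in PC3 for BAG5 (-1.61), PDCL3 (-1.42), DNAJB2 (-1.37), VBP1 (-1.11), NUDC (-1.04), TIMM44 (-0.76), PFDN5 (-0.75), PFDN1 (-0.58) and DERL2 (-0.57). A lower change need not be a fall in PC3, nor a higher one a rise. Of these differences 6 were lost when single libraries were left out, with the value without them in parentheses. NUDC was lost without DU145 sensitive replicate 2 (-0.80), DU145 resistant replicate 1 (-0.75) or PC3 sensitive replicate 2 (-0.99). TIMM44 was lost without DU145 sensitive replicate 2 (-0.66), DU145 resistant replicate 1 (-0.72), PC3 sensitive replicate 1 (-0.72), PC3 sensitive replicate 2 (-0.80) or PC3 resistant replicate 2 (-0.57). PFDN5 was lost without DU145 sensitive replicate 2 (-0.68), DU145 resistant replicate 1 (-0.60), PC3 sensitive replicate 2 (-0.60) or PC3 resistant replicate 1 (-0.65). PFDN1 was lost without DU145 sensitive replicate 2 (-0.45), DU145 resistant replicate 1 (-0.64), DU145 resistant replicate 2 (-0.53) or any 1 of the 4 PC3 libraries (-0.61 to -0.55). DERL2 was lost without DU145 sensitive replicate 2 (-0.45), DU145 resistant replicate 1 (-0.61), DU145 resistant replicate 2 (-0.55) or any 1 of the 4 PC3 libraries (-0.61 to -0.55). EDEM1 was lost without DU145 resistant replicate 1 (0.67), PC3 sensitive replicate 1 (0.82), PC3 sensitive replicate 2 (0.85) or PC3 resistant replicate 2 (0.66). The DERL2 difference was also lost with total count scaling (-0.47), DESeq2 (-0.58) and no low count filter (-0.54). That of PFDN1 was also lost with total count scaling (-0.48) and no low count filter (-0.55).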

How the results depend on the processing

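A threshold of 0.01 left 8 higher and 1 lower in DU145, 3 and 4 in PC3, and 1 and 7 for the difference. Shares over all genes were not counted under any of the other settings, here or above. A loss of calls among the 40 therefore cannot be told apart from a general loss of calls. With no low count filter 4 were lower in DU145 and 4 higher in the difference, which total count scaling also made 4. Leaving out single libraries gave 5 to 13 higher and 0 to 4 lower in DU145, 2 to 5 and 4 to 9 in PC3, 1 to 3 and 7 to 15 in the difference, and 12 to 21 and 5 to 7 between the sensitive lines. A group left with 1 library was taken to vary like the others. The labels give all groups replicate numbers 1 and 2 but not what they share. Same-numbered deviations correlated at 0.524 in DU145 and 0.163 in PC3 over all genes, and at 0.720 and 0.620 over the 40. With the replicate block 15 were higher and 5 lower in DU145, 6 and 11 in PC3, 2 and 15 in the difference. Changes that passed with the block and not without it were HSF1, HSP90AB1, FKBP5, DNAJA2 and DNAJB1 in DU145 and DNAJA1, DNAJA2, CALR, CANX and HSPA9 in PC3. Total count scaling moved the median of all genes to 0.11 in PC3 and 0.14 in the difference. Signs that turned belonged to changes that did not pass. In single fits PTGES3 in DU145 was at 0.000433 in DU145 libraries alone, HSPA1A in DU145 at -0.48 summed with HSPA1B, and FKBP5 in PC3 at 0.033 with total counts. Without single libraries HSP90AA1 ranged from -0.14 to 0.19, AHSA1 from -0.059 to 0.29, PTGES3 from -0.24 to 0.23, DNAJB4 from -0.029 to 0.49, HSPA5 from -0.24 to 0.085, PDIA4 from -0.44 to 0.070, PDIA6 from -0.058 to 0.22, CALR from -0.018 to 0.47, TRAP1 from -0.22 to 0.17 and HSPE1 from -0.23 to 0.48 in DU145. In PC3 HSP90AA1 ranged from -0.50 to 0.004995, FKBP5 from -0.38 to 0.19, HSPA1A from -0.36 to 0.63 and DNAJB1 from -0.13 to 0.34. The causes were not tested. With 2 libraries a group, changes of low genes such as HSPA1A in DU145 were not resolved.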
